A study of Mus musculus with 10 samples.

Results

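The RNA-binding protein RBFOX2 and the epithelial splicing regulators ESRP1 and ESRP2 are known for switching exons when epithelial cells become mesenchymal or the reverse. The 9 genes described here were chosen by name from that system. They are the splicing targets Fgfr2, Enah, Ctnnd1, Cttn, Insr, Cd44 and Actn1 and the regulators Esrp1 and Esrp2. All 9 were found among the 26857 entries of the deposited expression table, with Esrp1 and Esrp2 listed under their older names Rbm35a and Rbm35b. At this gene level the 9 genes showed small differences on Rbfox2 knockdown. None passed the test, and neither did Rbfox2 itself or any other gene of the table. The number of listed RBFOX2 clusters ran from 60 in Enah, the most abundant member, to 0 in Cd44, the least abundant. Joining overlapping clusters left 16 regions in Enah, and at the level of Cd44 absence of a cluster says nothing about binding.

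RBFOX2 binds short sequence elements in introns near alternative exons. As a rule it promotes inclusion of an exon when it binds downstream and skipping when it binds upstream. ESRP1 and ESRP2 are epithelial RNA-binding proteins that act on many of the same exons. A switch of exons changes which protein is made without having to change the amount of mRNA, so the values below are gene levels and do not measure exon inclusion.

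All libraries were made from V6.5 cells, a line of mouse embryonic stem (ES) cells. Cells for RNA-seq were infected with lentivirus carrying a control hairpin against luciferase (shLuc) or GFP (shGFP), or a hairpin against Rbfox2 (shFox2-1 or shFox2-2). Each hairpin had 2 biological replicates, 8 libraries in all, and cells were taken after selection in 1 µg/ml puromycin for 3 days and a further 24 h of recovery. For iCLIP, which recovers RNA crosslinked to a protein, other V6.5 cells carried doxycycline-inducible human RBFOX2 with a FLAG-HA tag (FHFOX2) or without one (UntagFOX2), 1 library each. They were selected in hygromycin at 150 µg/ml for 6 days, induced with doxycycline at 1 µg/ml for 24 h and crosslinked at 150 mJ/cm2. Binding was therefore measured on an introduced human protein in cells without an Rbfox2 hairpin, and expression in other cells. The untagged library had 7 more PCR cycles than the 16 of the tagged one.

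Expression is in FPKM, fragments scaled to transcript length and library size, so levels can be compared between genes. The table has a single value per hairpin, pooled over its 2 libraries, with the authors' confidence interval, so each condition has 2 values and the sequencing depth is unknown. Rbfox2 (listed as Rbm9) stood at 24.7 FPKM in shLuc and 23.3 in shGFP, against 8.56 in shFox2-1 and 7.21 in shFox2-2. The summed level of 9 pluripotency markers ranged from 1364 to 1652 FPKM over the hairpins, and that of 8 fibroblast markers from 2.83 to 3.86 FPKM, with Lum at 0 in all 4 hairpins. The summed level of 24 epithelial markers lay between 526 and 552 FPKM, and that of 20 mesenchymal markers and EMT factors between 254 and 275 FPKM. The scale differed between the knockdown hairpins. On log2(FPKM + 1), the median expressed gene of shFox2-1 lay 0.12 above that of shLuc and the median of shFox2-2 lay 0.08 below it.

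The target genes covered more than 2 orders of magnitude in level. Enah stood highest, with a mean over hairpins of 151 FPKM, followed by Ctnnd1 at 54.6, Cttn at 43.6 and Actn1 at 37.4 FPKM. Of the regulators, Esrp1 stood at 17.9 and Esrp2 at 4.04 FPKM. Fgfr2 stood at 5.71, Insr at 2.88 and Cd44 at 0.471 FPKM. Cd44 was the member below a mean of 1 FPKM, the level from which a gene is called expressed here, so 8 of the 9 were expressed. Some neighbours in this order could not be told apart by their intervals. Those of Cttn and Actn1 overlapped in both control hairpins, as did those of Esrp2 with Fgfr2 and with Insr.

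**Figure D1:**
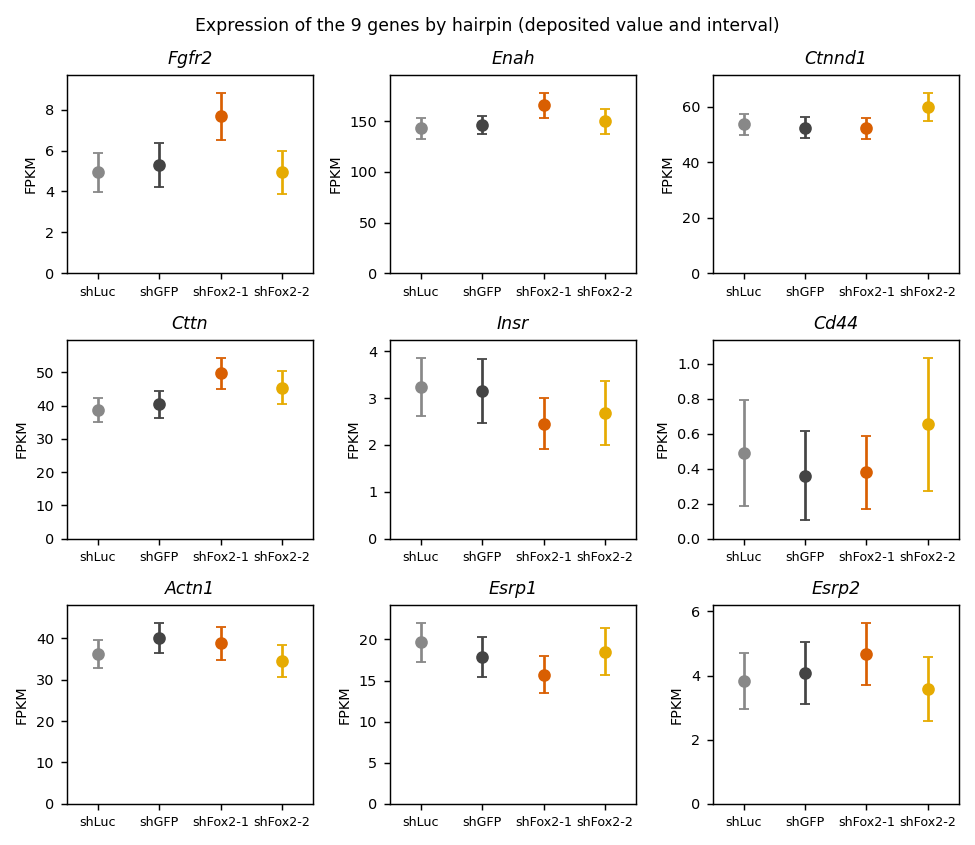
FPKM of each of the 9 genes (vertical axes, starting at 0) in the 4 hairpins, with points for the deposited pooled value and bars for the deposited confidence interval. Fgfr2 stands at 7.67 FPKM in shFox2-1 and near 5 in the other hairpins, and Cttn lies higher in both Rbfox2 hairpins than in both controls.

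The first question was whether mRNA of these genes changed when Rbfox2 was reduced. The knockdown and the control hairpins were compared with limma, a linear model fitted over all 20281 tested entries, on log2(FPKM + 1). None of the 9 genes passed an adjusted p of 0.05, and neither did any gene of the table, a background of 0%. Rbfox2 itself was not called, with a log2 fold change of -1.50 and a limma adjusted p of 0.913. With 2 values per condition, failing this test therefore does not show that a gene was unchanged. At an unadjusted p of 0.05, 0 of the 9 genes and 908 of 20281 entries (4.48%) passed. As a second description, with no test, separated means here that both Rbfox2 hairpins had intervals entirely above, or entirely below, the intervals of both controls. None of the 8 expressed members was separated, against 37 of 12632 expressed genes (0.293%), 22 higher (0.174%) and 15 lower (0.119%). Rbfox2 was among those lower. Its intervals were 7.14 to 9.98 FPKM in shFox2-1 and 5.59 to 8.82 in shFox2-2. With shLuc and shGFP they were 21.9 to 27.4 and 20.6 to 26.0 FPKM. In these bulk samples fewer cells of a type and less RNA per cell cannot be told apart. With each hairpin centred on its median expressed gene, 31 expressed genes were separated higher and 8 lower, and no member was. For intervals this centring is approximate, since the shift was taken on log2(FPKM + 1) and applied as a factor to FPKM. Beside shares this low, 0 of 8 is no result about the members.

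Cttn encodes cortactin, which binds branched actin filaments, and came nearest to a difference shared by both hairpins. It stood at 38.7 FPKM with shLuc (interval 35.0 to 42.3) and 40.5 in shGFP (36.4 to 44.5). In the Rbfox2 hairpins it stood at 49.7 in shFox2-1 (45.0 to 54.4) and 45.4 in shFox2-2 (40.4 to 50.3). Both knockdown values lay above both control values, and the interval of shFox2-2 overlapped those of the controls. Averaged over hairpins, Cttn was at 120% of its control level under knockdown. The log2 fold change came to 0.26 (standard error 0.11, 95% interval -0.02 to 0.54), with a limma adjusted p of 0.978.

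Enah encodes the actin regulator Mena, a member of the Ena/VASP family. It stood at 142.7 FPKM in shLuc (132.7 to 152.7) and 146.3 in shGFP (137.2 to 155.3), against 165.6 in shFox2-1 (153.3 to 177.95) and 149.98 in shFox2-2 (137.7 to 162.3). Both knockdown values were again above both controls, and the shFox2-1 interval lay above that of shLuc but overlapped that of shGFP. The shFox2-2 interval overlapped both. The log2 fold change was 0.12 with a 95% interval of -0.13 to 0.38 (limma adjusted p = 0.978).

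Insr encodes the insulin receptor, whose short exon is a known target of splicing regulators. It was the member with both knockdown values below both controls, at 3.24 and 3.16 FPKM in shLuc and shGFP against 2.45 in shFox2-1 and 2.68 in shFox2-2. The intervals reached from 1.90 to 3.86 FPKM and all overlapped. Averaged over hairpins, the knockdown level was 80.3% of that of the controls, with a log2 fold change of -0.24 and a 95% interval of -0.63 to 0.15 (limma adjusted p = 0.978). Of expressed genes, 14.3% had both knockdown values above both controls and 17.8% had both below. Against that background 2 members above and 1 below, of 8 expressed, are no result about these genes.

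Fgfr2, a receptor for fibroblast growth factors with epithelial and mesenchymal forms, differed in 1 hairpin. It stood at 4.94 FPKM in shLuc (3.99 to 5.90) and 5.30 in shGFP (4.22 to 6.37), at 7.67 in shFox2-1 (6.503 to 8.83) and at 4.94 in shFox2-2 (3.89 to 6.00). In shFox2-1 the value was 150% of the control mean and its interval lay above those of the other 3 hairpins. The shFox2-2 value was 96.6% of the control mean. Over both hairpins the log2 fold change was 0.23 with a 95% interval of -0.32 to 0.78 (limma adjusted p = 0.978), and without shFox2-1 it was -0.041.

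The interval of shFox2-1 lay above both controls in Fgfr2 and in Cttn, 2 of 8 expressed members, against 5.44% of all expressed genes, and below both in none, against 2.11% (7.55% in either direction). That of shFox2-2 lay above both controls in no member, against 0.348%, and below both in none, against 1.98% (2.33% in either direction). After centring on the median gene, the shFox2-1 interval of neither gene lay outside the controls, while the shFox2-2 intervals of Cttn and Ctnnd1 then lay above them. These single-hairpin positions therefore depend on how the hairpins are scaled to each other.

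Ctnnd1 encodes p120 catenin, which holds cadherins at the cell surface. Its values in shLuc, shGFP and shFox2-1 were 53.8, 52.5 and 52.2 FPKM, and in shFox2-2 it stood at 59.98 FPKM (54.8 to 65.1). The log2 fold change was 0.07 with a 95% interval of -0.22 to 0.36 (limma adjusted p = 0.994). Actn1 encodes alpha-actinin-1, a crosslinker of actin filaments. It stood at 36.2 and 40.2 FPKM with the control hairpins and at 38.8 in shFox2-1 and 34.5 in shFox2-2, with overlapping intervals. Its log2 fold change was -0.06 with a 95% interval of -0.37 to 0.25 (limma adjusted p = 0.994).

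Cd44 encodes the receptor for hyaluronan, with a block of variable exons. It stood at 0.490 FPKM in shLuc (0.186 to 0.794), 0.360 in shGFP (0.104 to 0.616), 0.380 in shFox2-1 (0.170 to 0.590) and 0.654 in shFox2-2 (0.273 to 1.04). Values of shGFP and shFox2-1 carried a low-data status, and the distance from the value to either bound was between 55.3% and 71.0% of the value. A difference between hairpins could not be detected at this level.

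Neither regulator passed the test. Esrp1 stood at 19.6 FPKM in shLuc (17.3 to 22.0), 17.9 in shGFP (15.4 to 20.3), 15.7 in shFox2-1 (13.5 to 17.98) and 18.5 in shFox2-2 (15.7 to 21.4). Its log2 fold change was -0.13 with a 95% interval of -0.48 to 0.22 (limma adjusted p = 0.981). Esrp2 stood at 3.83 and 4.07 FPKM with the control hairpins, 4.66 in shFox2-1 and 3.58 in shFox2-2. Its log2 fold change was 0.04 with a 95% interval of -0.40 to 0.49 (limma adjusted p = 0.998). All intervals of Esrp1 overlapped, as did all of Esrp2. The sign of the small fold changes of Esrp2, Ctnnd1, Actn1 and Cd44 turned when a single hairpin was left out, to -0.11 for Esrp2 without shFox2-1, and without shFox2-2 to -0.025 for Ctnnd1, 0.024 for Actn1 and -0.045 for Cd44.

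**Figure D2:**
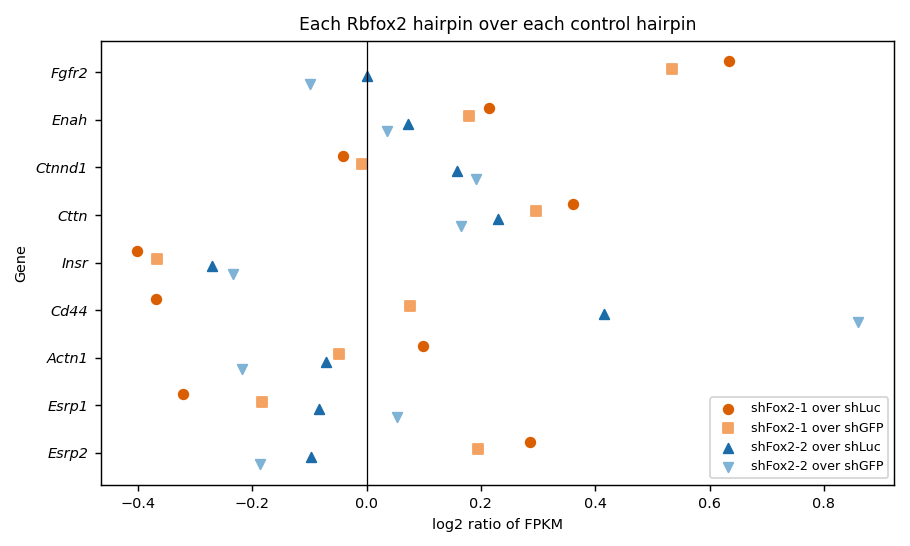
Log2 ratio of FPKM (horizontal axis) of each Rbfox2 hairpin over each control hairpin, with 4 markers per gene (vertical axis). All 4 ratios lie above 0 for Enah and Cttn and below 0 for Insr, and the widest spread among expressed genes is that of Fgfr2, from -0.10 to 0.63.

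Fgfr2 had the widest range over the hairpins among the expressed members, 0.54 on log2(FPKM + 1). The expressed genes with the nearest pattern over the 4 hairpins, after centring hairpins and genes, were Ubl3, Zfp94 and 4632434I11Rik. Their Euclidean distances from Fgfr2 were 0.018, 0.026 and 0.029, against a median of 0.42 over expressed genes. Ubl3 stood at 10.7 and 11.6 FPKM with the control hairpins, 16.1 in shFox2-1 and 10.9 in shFox2-2. With 4 values per gene such likeness is a description and nothing more.

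The next question was where tagged RBFOX2 was found on these transcripts. The authors' list holds 35639 clusters of the tagged library, each with the authors' own coverage, q-value and fold over the untagged library. It holds clusters of 1 library, all with a fold above 1, and has no replicate. A cluster was given to a gene when its midpoint lay in the locus of the expression table, on mouse build mm9. The 9 loci held 95 clusters, all on the minus strand, and the file names the same gene for every one of them. All 8 expressed members had at least 1 cluster, against 54.7% of the 12632 expressed loci. These loci are long, with a median of 71.7 kb against 19.7 kb for expressed loci. Among expressed loci of at least 50 kb 85.7% had a cluster, and among those of at least 100 kb 88.7%. Cttn, Esrp1 and Esrp2, at 35.0, 23.3 and 5.79 kb, are shorter than either bound. Of the 95 clusters, 85 had a coverage above the list's median of 374, and 12 (12.6%) were absent from the untagged library, against 44.9% of the whole list. Enah alone holds 60 of the 95, and without it 25 of 35 were above the median coverage and 10 of 35 (28.6%) were absent from the untagged library.

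**Figure D3:**
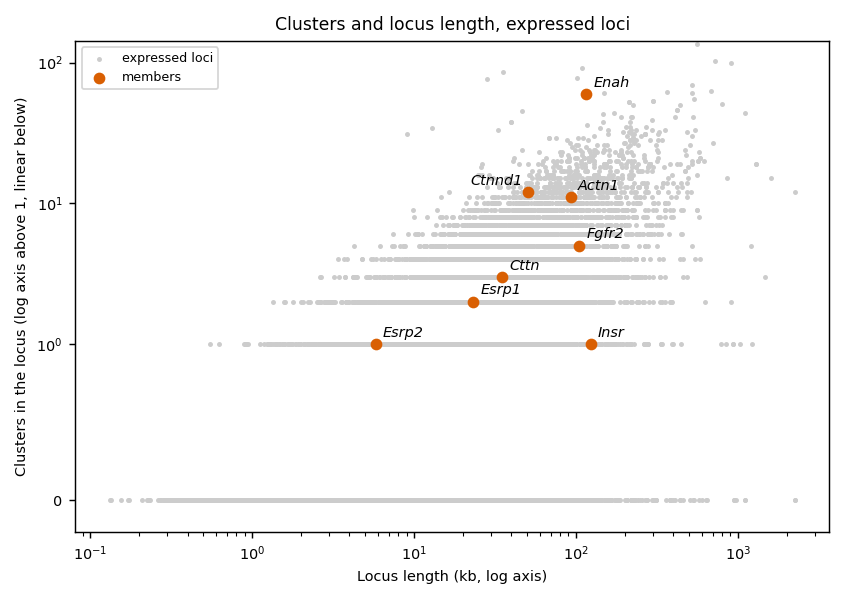
Number of clusters (vertical axis, logarithmic above 1 and linear below) against locus length in kb (horizontal log axis) for expressed loci, with the 8 expressed members in orange. Enah stands above most loci of its length with 60 clusters, and Insr holds 1 cluster in a locus of 124 kb.

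Enah (chromosome 1, 183834576 to 183950111) held 60 clusters, and 12 of the 12632 expressed loci held more. Its level lay above that of 97.8% of expressed genes, and how far mRNA level bears on the cluster count was not tested. All 60 had a coverage above the list's median, and 49 belonged to the top 10% of the list. Many of the 60 overlapped one another. When clusters overlapping by at least 1 base were joined, 16 separate regions remained, and 245 expressed loci held more regions. Across all loci of the 9 genes joining left 51 regions of 95 clusters, and Enah was the member whose count fell.

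One of these regions joined 38 clusters in 1233 bases, at chromosome 1, 183861458 to 183862690. It lay 26.9 to 28.1 kb from the 3′ end of the locus, between 75.7% and 76.7% of the way from the 5′ end. Of the 33775 joined regions in the list, 3 had more clusters. Coverage in this block ranged from 1035 to 35232 with a median of 12607. The fold over the untagged library was 1.57 to 9.87 with a median of 2.27, against a median of 4.54 for the other Enah clusters with a finite fold. By these folds the untagged library had coverage in the block too. Whether the clusters there mark 1 site or many cannot be told from the list.

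Outside this block, the strongest clusters of Enah lay toward the 3′ end. The cluster with the highest coverage, 35485 with a fold of 3.53, was at chromosome 1, 183834681 to 183835564, 0.547 kb from the 3′ end of the locus. Others with a coverage of 20596 and 18384 lay 7.21 and 15.3 kb from that end. A joined region of 6 clusters, 5.35 to 5.56 kb from the 3′ end, had folds of 4.03 to 13.37. Of the 60 clusters, 2 lay nearer to the 5′ end than to the 3′ end.

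Fgfr2 (chromosome 7, 137305965 to 137410322) held 5 clusters, all within a stretch that runs from 137340926 to 137343159. They lay between 64.4% and 66.4% of the way from the 5′ end, and gaps between neighbours were 46 to 696 bases. Read from the 5′ side, their coverages were 500, 1400, 2719, 2366 and 541. The central cluster (137341837 to 137342119) had a fold of 24.28 and the next, at 137341185 to 137341492, of 10.56. The last was absent from the untagged library. The rest of the locus, which spans 104 kb, held no cluster of the list.

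The gene named by the file gave another count for Fgfr2. A further 96 clusters carried the Fgfr2 identifier but lay between 139 and 2904 kb beyond the 5′ end of its locus. Of these, 91 fell in the loci of other expressed genes, among them 59 in Ctbp2 and 16 in Ate1. A count by identifier would give Fgfr2 101 clusters in place of 5. Insr likewise had 2 further clusters with its identifier, 0.825 and 4.68 kb beyond the 3′ end of its locus.

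**Figure D4:**
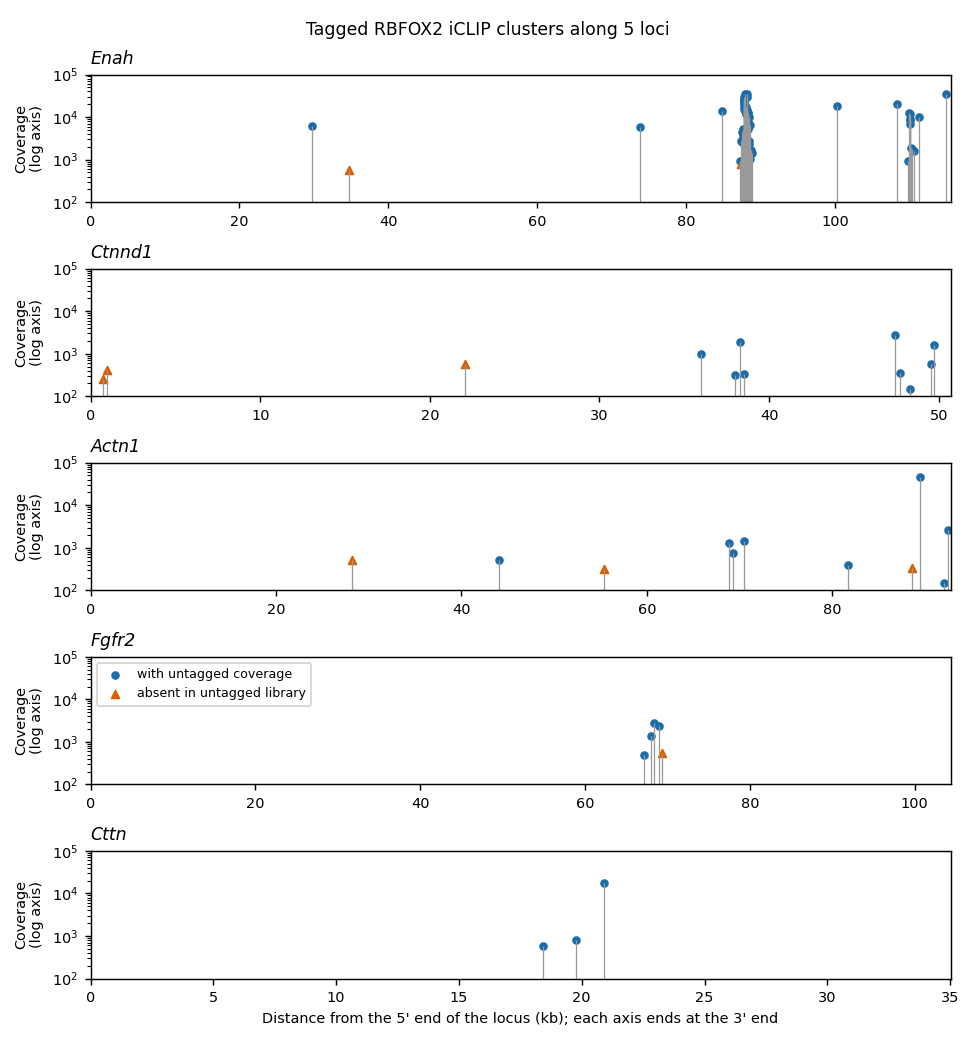
Coverage (vertical log axes) of each cluster against its distance from the 5′ end of the locus in kb (horizontal axes) for Enah, Ctnnd1, Actn1, Fgfr2 and Cttn, with triangles for clusters absent from the untagged library. The Fgfr2 clusters form 1 group and the Enah clusters a dense block near 88 kb.

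Cttn (chromosome 7, 151621629 to 151656646) held 3 clusters in the middle of its locus, between 52.6% and 59.7% of the way from the 5′ end. The 3′-most, at 151635521 to 151635940, had a coverage of 18022, rank 383 of the list, and a fold of 7.14. It held 92.9% of the coverage summed over the 3. The other clusters had coverages of 586 and 789 with folds of 10.85 and 7.04.

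Actn1 (chromosome 12, 81268534 to 81361303) held 11 clusters, with 599 expressed loci holding more. A cluster of 999 bases at 81271328 to 81272326, 3.29 kb from the 3′ end, had a coverage of 45776 and a fold of 6.02. It was the highest coverage of any member and rank 76 of the list, and it held 84.4% of the Actn1 sum. A group of 3 clusters lay near 75% of the locus, at 81290659 to 81292569, with coverages of 1310, 750 and 1454 from the 5′ side. Of the 11, 3 were absent from the untagged library, and these had coverages of 326 to 513.

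Ctnnd1 (chromosome 2, 84440228 to 84490924) held 12 clusters, and 512 expressed loci held more. Near the 5′ end, 2 clusters at 0.754 and 0.996 kb were absent from the untagged library. A group of 3 at 84452345 to 84452986 had coverages of 343, 1937 and 311 and folds of 26.38, 9.40 and 2.78. Single clusters with coverages of 576 and 984 lay at 43.6% and 71.0% of the locus. The last 5 kb held 5 clusters, with the highest coverage of the gene, 2691 at a fold of 6.02, at 84443335 to 84443724. The 3′-most of them had a coverage of 1586 at a fold of 1.12.

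Insr (chromosome 8, 3155669 to 3279176) had 1 cluster in its locus of 124 kb, at 3181355 to 3181677, with a coverage of 3181 and a fold of 6.98. Of expressed loci, 5066 held more clusters. Cd44 (chromosome 2, 102651298 to 102741822) had none, at the lowest mRNA level of the 9 genes, so absence of a cluster there says nothing about binding.

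The loci of the regulators held 3 clusters in all, where the median expressed locus held 1. Esrp1 (chromosome 4, 11259080 to 11282356) held 2, at 1.58 and 12.5 kb from the 5′ end, with coverages of 285 and 500. Esrp2 (chromosome 8, 108655083 to 108660874) held 1, with a coverage of 217, in a locus of 5.79 kb. All 3 were absent from the untagged library. Their coverages ranked between 13877 and 27862 in the list of 35639.

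Cluster counts and differences in mRNA did not follow the same order. Enah, with 60 clusters, had a log2 fold change of 0.12 and Cttn, with 3, of 0.26. Ctnnd1 and Actn1, with 12 and 11 clusters, had log2 fold changes of 0.07 and -0.06. All 4 intervals of these fold changes included 0, and with 8 expressed members no relation was tested.

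Genes that share pathways with the members, other splicing targets and markers of cell state were described from 11 lists. In these lists 154 of 157 different genes were found. Their counts stand beside the 0.293% of expressed genes that were separated, and limma called 0 genes of any list after adjustment. Other genes known for exons that switch between epithelial and mesenchymal cells numbered 16, of which 14 were tested and all 14 were expressed. Their median log2 fold change was 0.10, against -0.01 for expressed genes and 0.06 for the 8 expressed members. The median of the 14 was 0.18 in shFox2-1 and -0.01 in shFox2-2, each against the mean of the controls on log2(FPKM + 1), where all expressed genes had 0.07 and -0.09. No tested member was separated. Every one of the 14 had a cluster, against 54.7% of expressed loci, with a median of 8 in loci of a median 68.7 kb. Of expressed loci of at least 50 kb, 85.7% had a cluster and the median was 5. Ect2, a regulator of cytokinesis, stood at 51.9 and 62.5 FPKM with the control hairpins and at 71.9 and 58.2 in shFox2-1 and shFox2-2.

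Around Fgfr2, the 20 genes of the FGF receptor list had a median log2 fold change of 0.02 over 14 expressed members, and none was separated. Fgfr1, an FGF receptor above Fgfr2 in level, carried a low-data status in every hairpin. It stood at 34.7 and 36.6 FPKM with the control hairpins, 37.2 in shFox2-1 and 36.5 in shFox2-2, with a log2 fold change of 0.05. Etv5, a transcription factor downstream of FGF signalling, stood at 37.8 and 43.9 against 34.7 and 38.8 FPKM. Other genes of the list differed from Etv5 in shFox2-1. The interval of that hairpin lay above both controls in 2 of the 14 and below in 1, against 5.44% and 2.11% of expressed genes. Around Insr, 12 expressed genes of insulin and IGF signalling had a median of 0.04. Both knockdown values lay above both controls in 4 of them and below in 5, where 14.3% and 17.8% of expressed genes did. The adaptor gene Grb10 stood at 41.4 and 42.6 FPKM with the control hairpins, 32.5 in shFox2-1 and 40.0 in shFox2-2, and Pik3r2 at 25.8 and 27.0 against 26.6 and 25.9.

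Around Enah and Cttn, the 18 expressed genes of Ena/VASP and Arp2/3 actin assembly had a median of -0.05. Pfn1, which encodes the actin monomer-binding protein profilin, stood at 249.8 and 304 FPKM with the control hairpins and 283 and 216 in the knockdown hairpins. Arpc1a, a subunit of the Arp2/3 complex, stood at 44.2 and 46.4 against 53.2 and 52.6, with a low-data status in every hairpin. Around Ctnnd1, the 7 expressed genes of the cadherin-catenin complex had a median of -0.01. Ctnna1, which encodes alpha-catenin, stood at 132.5 and 135.5 FPKM against 157 and 151, with 26 clusters, and Ctnnb1 at 93.7 and 109 against 116 and 87.5. Around Actn1, the 12 genes of the adhesion plaque list had a median of -0.10. In 5 of them the knockdown values were both lower than either control, as in 17.8% of expressed genes. Flna is one of them, at 46.6 and 51.0 against 44.5 and 42.1 FPKM. Actn4, the paralog most abundant here, stood at 62.4 and 78.5 against 84.0 and 60.5, with a low-data status in shFox2-2. Around Cd44, the 7 expressed genes of the ERM list had a median of -0.05, with Ezr at 45.6 and 49.5 against 44.6 and 41.4, and Nf2 at 39.2 and 41.2 against 52.4 and 45.6 FPKM. None of the genes in these lists was separated.

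**Figure D5:**
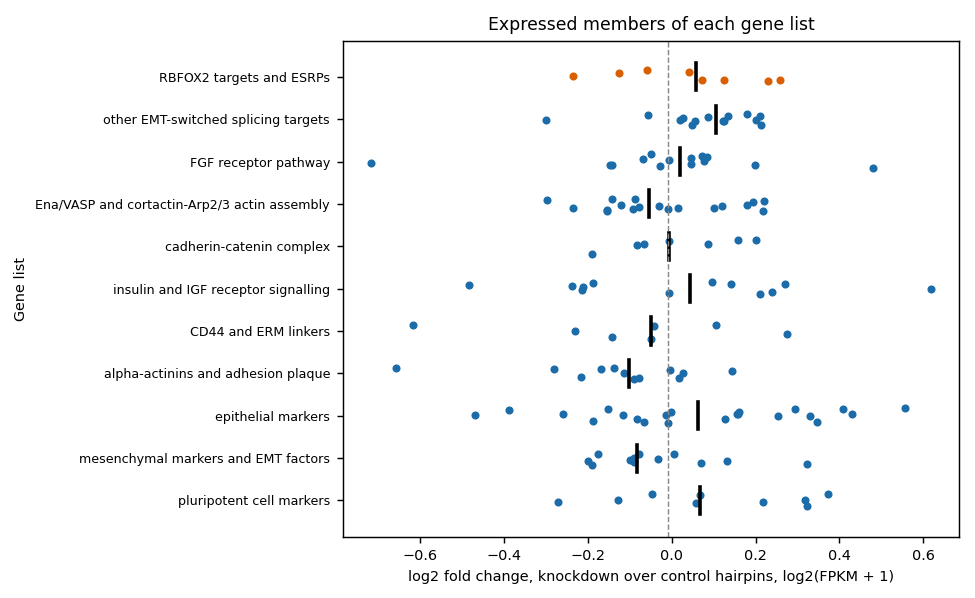
Log2 fold change of knockdown over control hairpins on log2(FPKM + 1) (horizontal axis) for tested and expressed members of each list but fibroblast markers (vertical axis), with a point per gene, a black bar at the list's median and a dashed line at the median of expressed genes, -0.01. The 8 expressed targets and ESRPs lie between -0.24 and 0.26.

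Markers of epithelial and mesenchymal state were set beside the members. Of 22 expressed epithelial markers, none was separated and the median log2 fold change was 0.06. The interval of shFox2-1 lay above both controls in 6 of the 22 and below in 1, against 5.44% and 2.11% of expressed genes. That of shFox2-2 lay outside them in none, against 2.33%. As deposited shFox2-1 has the higher median gene, and the shares over all expressed genes were taken on the same scale. No centred count is at hand for this list. Above were Krt7, Krt8, Krt18, Dsp, Grhl3 and Jup and below was Cldn6, named after their values were seen. Krt8 stood at 19.5 and 20.8 FPKM with the control hairpins, 39.0 in shFox2-1 and 23.1 in shFox2-2. Cldn6 stood at 75.4 and 76.0 against 47.6 and 92.3 FPKM. The most abundant of the list were the protease inhibitor gene Spint2, at 97.8 and 106 FPKM with the control hairpins and 95.7 and 106 in the knockdown hairpins, and the adhesion gene Epcam, at 94.9 and 94.4 against 74.1 and 91.9. Spint2 carried a low-data status in shGFP and shFox2-2. Epcam had a failed status in shGFP, was not tested and is not among the 22. The 12 expressed mesenchymal markers and EMT factors had a median of -0.08, with none separated. Fn1, which encodes fibronectin, stood at 106 and 99.2 FPKM with the control hairpins and 84.9 and 108.8 in the knockdown hairpins, and Sparc, which encodes a matrix protein, at 50.02 and 57.2 against 72.0 and 43.8. Among pluripotency markers Sall4 was the separated member, at 70.98 and 72.3 FPKM with the control hairpins and 91.4 and 87.7 in the knockdown hairpins. Sall4 was no longer counted when a status of OK was required in every hairpin. The abundant pluripotency genes Dppa5a and Pou5f1 stood at 427 and 477 against 517 and 432, and at 285 and 336 against 299.7 and 268 FPKM.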

How the data were processed

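Per the file headers, the deposited table holds FPKM, its confidence bounds and a status for every gene under each hairpin, from 2 libraries that the authors pooled. TopHat2 2.0, Cufflinks 2.1.1 and build mm9 come from the submitters' processing notes. How hairpins were scaled to each other, the annotation and the cluster caller are not given in the sources used here. Other values are the authors' cluster coverage, fold and q-value, deposited as 1 joined cell per cluster. Depth is unknown for both assays.

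Of 26857 entries, 105 with a failed status and 6477 at 0 in every hairpin were left out (some met both), and 20281 were tested with limma 3.58.1 (R 4.3.3) on log2(FPKM + 1) with a mean-variance trend and Benjamini-Hochberg adjustment. Its p measures the spread between 2 hairpins per condition, not between cultures, and fold changes on this scale understate those of low genes. Expressed means a mean of at least 1 FPKM (12632 entries). Members and lists were chosen with earlier results of these data known. Named in the text are all 9 genes and, of each list, separated genes of at least 5 FPKM (up to 4) and the 2 of highest FPKM. Genes outside this rule that were named after their values were seen are marked so where they appear. Fibroblast genes are given only as a sum. One gene that this rule names is not reported here. Coordinates are 1-based. Strand came from RefSeq (Fgfr2, Enah, Ctnnd1, Cd44, Actn1) or from the clusters. Alternatives tried were a filter on low values or status, other pseudocounts, centring, leaving out each hairpin, and other ways of counting clusters.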

Additional observations from a re-analysis of the deposited data

Results flagged for a closer look

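In Ctnnd1 the Rbfox2 hairpins lay on opposite sides of both controls, with shFox2-1 below and shFox2-2 above them, and the log2 ratio of shFox2-2 to shFox2-1 was 0.20. Esrp2 showed the reverse order, with shFox2-1 above and shFox2-2 below both controls and a log2 ratio of -0.38. The difference was not tested in either gene, since each hairpin has 1 pooled value. Of expressed genes, 30.8% had the hairpins on opposite sides in the same way, and the medians of the hairpins differ.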

How the results depend on the processing

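No paired analysis was possible because the table pools the replicates of each hairpin. No member passed limma under any of 9 alternatives, with adjusted p between 0.327 and 1.0 over 80 member values, and 74 of these kept their direction. The other 6 changed sign with a hairpin left out. The log2 fold change of Fgfr2 ran from -0.041 without shFox2-1 to 0.50 without shFox2-2, and that of Esrp2 from -0.11 to 0.19 in the same order. Without shFox2-2 those of Ctnnd1 and Cd44 were lowest, at -0.025 and -0.045, and without shFox2-1 highest, at 0.17 and 0.22. Actn1 ran from -0.14 without shFox2-1 to 0.024 without shFox2-2, and was 0.014 without shGFP. Over all alternatives Enah ran from 0.053 to 0.20, Cttn from 0.19 to 0.32, Esrp1 from -0.24 to -0.015 and Insr from -0.31 to -0.12. Genes called over the whole table numbered 1 at a mean of at least 1 FPKM and 2 after centring, against 0. Members separated ranged from 0 to 2 when hairpins were left out, with 2 (Fgfr2 and Cttn) without shFox2-2. Members with both knockdown values on one side of both controls numbered 3, and 4 after centring. With a hairpin left out 5 to 7 members had all remaining knockdown values on one side of the remaining controls. Fewer values then have to agree and no matching share of expressed genes is at hand, so the rise is no result about the members. Both alternatives were chosen after seeing the data. Separated genes of the other lists numbered 1 as deposited, 2 after centring, 0 with status OK in every hairpin, and 1 to 28 with a hairpin left out (3 without shLuc, 2 without shFox2-1, 28 without shFox2-2). Separated expressed genes numbered 37, and 106, 118, 294 and 954 without shLuc, shGFP, shFox2-1 and shFox2-2. Clusters in member loci numbered 95, 18 at a fold of at least the list's median of 12.23, 193 by the file's gene identifier, and 51 with overlapping clusters joined, the last chosen after seeing the data. Exon inclusion was not analysed here.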

Other observations

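Of the 154 genes found in the 11 lists, 7 had an unadjusted limma p under 0.05, and none passed adjustment over all genes. Not all of the 154 were tested. Among all tested entries 4.48% had such a p, so the count of 7 is near the background and is no result about these lists. The 7 genes are named here after their values were seen. Fgf5, a growth factor of cells leaving the naive pluripotent state, stood at 2.60 FPKM in shLuc, 2.25 in shGFP, 0.777 in shFox2-1 and 1.43 in shFox2-2. Its log2 fold change was -0.72 (standard error 0.20). Has2, which encodes a synthase of the CD44 ligand hyaluronan, stood at 3.05 and 3.18 FPKM with the control hairpins against 1.43 and 1.97, all with a low-data status, a log2 fold change of -0.62 (standard error 0.18). Irs2, an adaptor of the insulin receptor, stood at 5.67 and 6.33 FPKM against 3.82 and 4.19, a log2 fold change of -0.48 (standard error 0.16). Actn3, a paralog of Actn1, stood at 6.03 and 7.36 FPKM against 2.92 and 5.02, a log2 fold change of -0.66 (standard error 0.25). In these 4 the interval of shFox2-1 lay below both controls and that of shFox2-2 did not. The other 3 had higher values in both knockdown hairpins than in both controls. Ovol2, a transcription factor of epithelial cells, stood at 3.40 and 3.62 FPKM against 4.98 and 4.98 (log2 fold change 0.41). All its intervals overlapped. Fgf7, a growth factor, stood at 0.184 FPKM in shFox2-1 and 0.267 in shFox2-2, while each control hairpin had a listed value of 0. Both knockdown intervals of Fgf7 began at 0 as well, and its mean lay below the level called expressed here. Sall4 had a log2 fold change of 0.32. Actn3 held 1 cluster and Sall4 5, and the other 5 loci held none.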
